A study of Mus musculus with 12 samples.

Results

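Slc44a5, Clstn2, Gcnt1, Fam163b, Gm15083 and Gm39465 are 6 genes whose level in the cerebellum set heterozygous SCA1 knock-in mice apart from wild-type mice in the libraries described here. They were chosen by their measured levels, because both knock-in groups differed from the wild-type group, so their differences from wild type are given as a description, with no test. The rule named no numeric threshold. The tables hold 55401 genes, of which 19378 passed the filter on low counts and were tested, and all 6 passed it.

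Spinocerebellar ataxia type 1 (SCA1) is caused by an expanded CAG tract in Atxn1, and the series tests compounds that select for RNAs carrying such repeats. Each of 12 mice gave 1 RNA-seq library of whole cerebellum. The groups, of 4 mice each, were wild type given DMSO (WT DMSO, libraries 413, 425, 426 and 431), Atxn1 154Q/2Q heterozygotes given DMSO (Het DMSO, libraries 409, 411, 420 and 429) and Atxn1 154Q/2Q heterozygotes given the compound Hit 2 (Het Hit 2, libraries 410, 421, 422 and 430). All mice received DMSO, the solvent of Hit 2, so no group was free of injection. Treatment started at 18 weeks of age and consisted of daily intraperitoneal injections over 5 days, 2 days of rest and 5 more days, with Hit 2 at 25 mg/ml and DMSO below 4 ml/kg. Tissue was taken at 20 weeks. No wild-type mice received Hit 2, so an action of the compound without the knock-in allele was not measured. The knock-in allele is carried in every cell of these mice.

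Ataxin-1, the protein made from Atxn1, acts in the nucleus together with the repressor Capicua, and the expanded protein alters transcription. Purkinje cells, the output neurons of the cerebellar cortex, are the cells best known to be affected in SCA1, and granule cells, interneurons, Bergmann glia and oligodendrocytes make up most of the remaining tissue. Of the 6 genes, 4 encode proteins. Slc44a5 belongs to the choline transporter-like family. Clstn2 encodes calsyntenin-2, a cadherin-type adhesion protein of the postsynaptic membrane. Gcnt1 encodes the Golgi enzyme that adds the core 2 branch to O-linked glycans, and Fam163b encodes a small membrane protein of the FAM163 family. Gm15083 is annotated as an antisense RNA that partly overlaps Atp2b2, the gene of a plasma membrane calcium pump, and Gm39465 as a long intergenic RNA. Neither RNA has a function that is stated here.

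The bases before the start sites of 4 of the genes are shown so that the 2 protein-coding genes with the most CpG can be set against the 2 noncoding RNAs with the lowest knock-in levels. Each run holds the 250 bases before the RefSeq start in the mouse build GRCm38.p6, read 5′ to 3′ on the strand of the gene, with each CpG in capitals. The windows lie at chr9:98033168-98033417 (minus strand) for Clstn2, chr2:27142478-27142727 (minus strand) for Fam163b, chr6:114004506-114004755 (plus strand) for the first of 2 listed starts of Gm15083, and chr9:122051509-122051758 (minus strand) for Gm39465.
Clstn2: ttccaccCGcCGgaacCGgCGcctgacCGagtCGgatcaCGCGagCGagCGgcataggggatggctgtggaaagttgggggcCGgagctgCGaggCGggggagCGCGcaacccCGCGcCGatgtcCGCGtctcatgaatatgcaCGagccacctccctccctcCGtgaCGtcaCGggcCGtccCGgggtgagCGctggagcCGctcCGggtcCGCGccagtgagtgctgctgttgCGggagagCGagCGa
Fam163b: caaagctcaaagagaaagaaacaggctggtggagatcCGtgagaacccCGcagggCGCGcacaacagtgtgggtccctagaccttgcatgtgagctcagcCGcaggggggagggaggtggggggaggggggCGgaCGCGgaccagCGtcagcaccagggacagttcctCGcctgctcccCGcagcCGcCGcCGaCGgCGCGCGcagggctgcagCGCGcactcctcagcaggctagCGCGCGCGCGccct
Gm15083: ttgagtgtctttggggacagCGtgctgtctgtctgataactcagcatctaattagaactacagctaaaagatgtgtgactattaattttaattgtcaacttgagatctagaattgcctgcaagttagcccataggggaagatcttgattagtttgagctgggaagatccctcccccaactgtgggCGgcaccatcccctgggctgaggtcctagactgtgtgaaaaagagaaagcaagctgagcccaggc
Gm39465: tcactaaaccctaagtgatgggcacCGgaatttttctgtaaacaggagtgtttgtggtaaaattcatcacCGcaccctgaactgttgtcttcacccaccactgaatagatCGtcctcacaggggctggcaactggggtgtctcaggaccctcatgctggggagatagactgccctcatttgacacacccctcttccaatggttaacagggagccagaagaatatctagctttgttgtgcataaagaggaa
The Clstn2 window holds 34 CpG and the Fam163b window 25, against a median of 6 over the 32851 promoter windows in the RefSeq table. Only 3.53% of those windows hold as many as Clstn2 does and 10.7% as many as Fam163b. Gm15083 has 2 CpG at this start and 0 at its second, and Gm39465 has 3. The Slc44a5 window has 15, and the 3 starts of Gcnt1 have 2, 10 and 2. The genes that were higher in the Het groups include no CpG-poor start, while those that were lower include both kinds. Nothing is read from this, since only 2 of the 6 genes were higher. Of all windows, 27.3% hold at least the 15 CpG of Slc44a5. The 8-letter Capicua motifs TGAATGAA and TGAATGGA, searched on both strands, occur in 1.08% and 1.01% of all windows and in none of the 9 windows of the 6 genes, which says only that these letters are absent from these windows.

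The transcripts of the 6 genes also carry no long CAG tract in the reference. The longest uninterrupted run was 3 CAG units in Clstn2, a length that 15.3% of the tested genes reach. Slc44a5, Fam163b, Gm15083 and Gm39465 have 2 units, as 79.7% of tested genes do or exceed, and Gcnt1 has 1.

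Depth was 15855751 to 45265719 reads assigned to genes per library. Levels are given as CPM, the usual unit of read counts scaled to library size, here with TMM factors, which correct for differences in RNA composition. Libraries 409 and 411, both Het DMSO, differed from the other 10. Library 409 had 0.0796% of its gene reads on mitochondrial genes, against 1.85% to 2.81% elsewhere. Library 411 had 273.5 CPM over 12 granule cell markers and 1517 CPM over 16 Purkinje cell markers, against at least 4500 and 4595 CPM in the other 11 libraries. Its 10 markers of midbrain and thalamus summed to 272 CPM, against at most 88.9 CPM elsewhere. Xist, the RNA of the inactive X chromosome, had 59107 and 55987 reads in WT libraries 425 and 426 and at most 11 reads in the other 10, so both sexes occur in the WT group only.

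In all 6 genes the 4 WT libraries lay apart from all 8 Het libraries, with Slc44a5 and Fam163b higher in Het mice and Clstn2, Gcnt1, Gm15083 and Gm39465 lower. Among all tested genes 1.8% separate in that way, 0.619% with the Het libraries higher and 1.18% with them lower. With the further condition that both Het groups differ from WT by at least 2-fold, the share is 0.227%, or 44 genes, which include 5 of the 6 and leave out Clstn2. Nothing is read from these counts, since the genes were chosen for this separation. The threshold used for a call was an adjusted p under 0.05 in edgeR over all tested genes. Against WT it was passed by 0.00516% of tested genes in each Het group, that is by 1 gene, which is none of the 6. No p of the 6 genes against WT is printed, and counts of calls against WT support nothing, since their selection fixed the outcome.

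**Figure D1:**
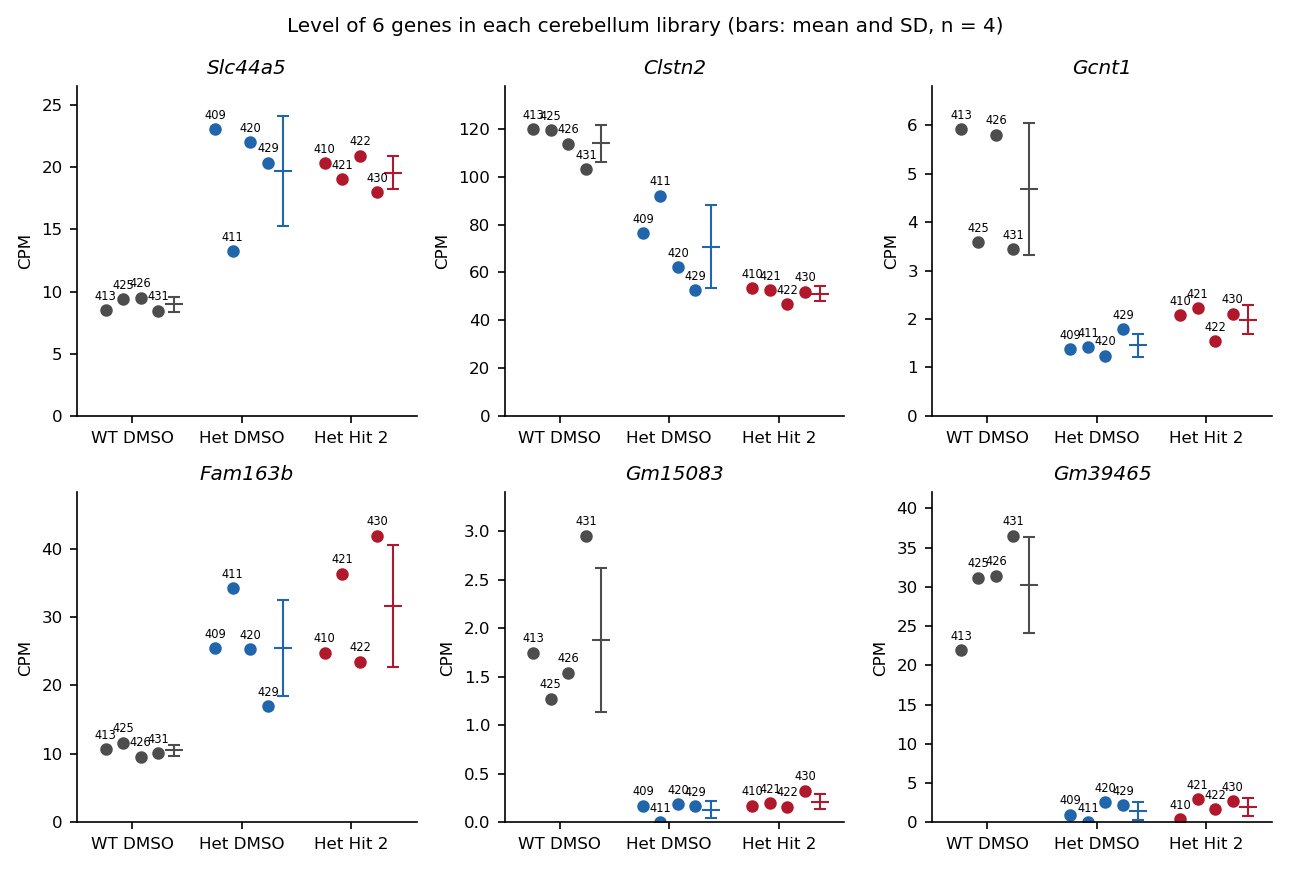
Level of each of the 6 genes in CPM (vertical axis, linear) in each library, labelled by animal number, for the 3 groups, with bars for the mean and SD of 4 libraries. In each panel the 4 WT points lie outside the range of the 8 Het points. As a ratio of the nearest values, the gap is narrowest in Clstn2, at 1.12 (103 CPM in the lowest WT library, 92.1 CPM in library 411).

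Slc44a5 (ENSMUSG00000028360, chromosome 3, 153973436 to 154271722 on the plus strand in GRCm38) had a mean in each Het group that was 2.18 to 2.19 times its WT level in the fit. It stood at 8.49, 9.40, 9.52 and 8.46 CPM in WT libraries 413, 425, 426 and 431. In Het DMSO it was 23.1 (409), 13.3 (411), 22.03 (420) and 20.4 CPM (429), and in Het Hit 2 it was 20.3 (410), 19.0 (421), 20.9 (422) and 18.0 CPM (430). Library 411 was the lowest Het library, at 62.6% of the mean of libraries 420 and 429, and still lay above every WT library. The group means were 8.97 ± 0.571, 19.7 ± 4.42 and 19.6 ± 1.31 CPM (SD, n = 4 each). Relative to WT DMSO the log2 fold change was 1.13 (SE 0.17) in Het DMSO and 1.13 (SE 0.17) in Het Hit 2. Both values use the same 4 WT libraries, as do all pairs of values against WT below.

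Fam163b (ENSMUSG00000009216, chromosome 2, 27110380 to 27142491, minus strand) was the other gene with higher levels in Het mice, and its levels varied within both Het groups. Its WT libraries held 10.7 (413), 11.6 (425), 9.63 (426) and 10.1 CPM (431). The Het DMSO libraries held 25.5 (409), 34.2 (411), 25.3 (420) and 16.9 CPM (429), and the Het Hit 2 libraries 24.8 (410), 36.3 (421), 23.5 (422) and 41.9 CPM (430). The highest Het value, in library 430, was followed by those of 421 and 411, so high values occurred in both Het groups. Means were 10.5 ± 0.864 CPM in WT DMSO, 25.5 ± 7.06 CPM in Het DMSO and 31.6 ± 8.95 CPM in Het Hit 2 (SD, n = 4 each). The log2 fold change from WT was 1.28 (SE 0.23) for Het DMSO and 1.59 (SE 0.23) for Het Hit 2. Without libraries 409 and 411 these were 0.99 and 1.57.

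Clstn2 (ENSMUSG00000032452, chromosome 9, 97444395 to 98033181, minus strand) was the most abundant of the 6 in WT mice, also per length. It stood at 119.9 (413), 119.3 (425), 113.8 (426) and 103 CPM (431) in the WT libraries. In Het DMSO the values were 76.2 (409), 92.1 (411), 62.2 (420) and 52.4 CPM (429), and in Het Hit 2 they were 53.3 (410), 52.5 (421), 46.8 (422) and 51.9 CPM (430). The highest Het values were those of libraries 411 and 409, at 161% and 133% of the mean of 420 and 429. Group means came to 114 ± 7.73, 70.8 ± 17.3 and 51.2 ± 2.96 CPM (SD, n = 4 each) in WT DMSO, Het DMSO and Het Hit 2. The log2 fold change from WT was -0.69 (SE 0.15) in Het DMSO and -1.16 (SE 0.16) in Het Hit 2, and without 409 and 411 it was -1.004 and -1.17.

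Gcnt1 (ENSMUSG00000038843, chromosome 19, 17326141 to 17372844, minus strand) had 20 to 222 reads per library. The WT libraries fell into a higher pair, 413 and 426 at 5.92 and 5.81 CPM, and a lower pair, 425 and 431 at 3.58 and 3.45 CPM. Het DMSO libraries 409, 411, 420 and 429 had 1.38, 1.41, 1.25 and 1.79 CPM. Het Hit 2 libraries 410, 421, 422 and 430 had 2.09, 2.22, 1.54 and 2.11 CPM. Libraries 409 and 411 did not stand apart here, at 90.8% and 93.0% of the mean of 420 and 429. Means were 4.69 ± 1.36, 1.46 ± 0.236 and 1.99 ± 0.306 CPM (SD, n = 4 each) in WT DMSO, Het DMSO and Het Hit 2, with log2 fold changes from WT of -1.68 (SE 0.26) and -1.24 (SE 0.25).

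Gm39465 (ENSMUSG00000111389, chromosome 9, 122019528 to 122051463, minus strand) had the largest distance between WT and Het mice of the 6. Its WT libraries held 21.9 (413), 31.2 (425), 31.4 (426) and 36.5 CPM (431). In Het DMSO it was 0.985 (409), 0.0505 (411), 2.55 (420) and 2.17 CPM (429), and in Het Hit 2 it was 0.405 (410), 2.97 (421), 1.66 (422) and 2.67 CPM (430). The lowest WT value was 7.39 times the highest Het value, and libraries 411 and 410 were the lowest, with 1 and 7 reads. Summed over the group the reads were 3954 in WT DMSO, 134 in Het DMSO and 196 in Het Hit 2. Relative to all gene reads the Het DMSO group had 4.28% of the WT level (95% interval 3.58% to 5.09%) and the Het Hit 2 group 6.45% (5.56% to 7.45%), where the intervals cover counting error only. The fitted log2 fold change from WT was -4.41 (SE 0.74) and -3.97 (SE 0.72), and -3.70 and -3.98 without 409 and 411.

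Gm15083 (ENSMUSG00000087083, chromosome 6, 114004789 to 114052265, plus strand) had the fewest reads of the 6, with at most 66 in a library. The WT libraries had 1.75 (413), 1.27 (425), 1.54 (426) and 2.95 CPM (431), from 228 reads in all. Het DMSO libraries 409, 420 and 429 had 0.172, 0.187 and 0.167 CPM, and library 411 had 0 of 19362554 gene reads, which allows up to 0.151 CPM at a floor of 3 reads. Het Hit 2 libraries 410, 421, 422 and 430 had 0.174, 0.198, 0.161 and 0.328 CPM. All Het libraries thus lay close together and below all WT libraries, from 14 reads in Het DMSO and 21 in Het Hit 2. These sums were 7.76% (95% interval 4.18% to 13.3%) and 11.99% (7.28% to 18.8%) of the WT level after scaling to gene reads. The fitted log2 fold change from WT was -3.75 (SE 0.55) and -3.11 (SE 0.53).

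Within the WT group, libraries of the 2 sexes had similar means for 5 of the 6 genes. The mean of the 2 Xist-high WT libraries divided by that of the other 2 was 1.12 for Slc44a5, 1.05 for Clstn2, 1.00 for Gcnt1, 1.02 for Fam163b and 1.07 for Gm39465. For Gm15083 it was 0.599, smaller than its WT to Het distance. With 2 libraries on each side no test was made.

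Per kilobase of exon, which allows levels of different genes to be compared, the WT means were 20.0 CPM for Clstn2, 3.55 for Fam163b, 3.08 for Gm39465, 1.33 for Gm15083, 1.26 for Slc44a5 and 0.814 for Gcnt1. In Het DMSO the same quantity was 12.4 for Clstn2, 8.61 for Fam163b, 2.76 for Slc44a5, 0.253 for Gcnt1, 0.147 for Gm39465 and 0.0931 for Gm15083. In Het Hit 2 it was 10.7 for Fam163b, 8.99 for Clstn2, 2.74 for Slc44a5, 0.345 for Gcnt1, 0.196 for Gm39465 and 0.152 for Gm15083. Gm39465 was thus in the third place in WT and in the fifth in both Het groups. Clstn2 was first in WT and Het DMSO and followed Fam163b in Het Hit 2. Without libraries 409 and 411 the Het DMSO order was as given, with 10.07 for Clstn2 and 7.13 for Fam163b.

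The comparison of Het Hit 2 with Het DMSO asks whether the compound moved these levels, and it was not used to pick the genes. The demand that both Het groups differ from WT does, however, favour genes with like levels in the 2 Het groups. By edgeR's quasi-likelihood test with Benjamini-Hochberg adjustment over all tested genes, 0 of the 6 genes passed the threshold, as did 0% of all tested genes. One gene of the 6, Clstn2, had an unadjusted p under 0.05, as did 1.55% of all tested genes, and DESeq2 and limma with library weights also called 0. None of the 6 genes had Het groups that did not overlap, against 1.03% of all tested genes.

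Clstn2 had the smallest edgeR p of the 6 and was lower with Hit 2, further from WT, while Gcnt1 had the smallest permutation p. The log2 fold change of Het Hit 2 against Het DMSO was -0.47 (SE 0.15, 95% interval -0.81 to -0.13), with an edgeR p of 0.0105 before and 0.898 after adjustment. The exact two-sided permutation p was 0.0857, where 0.0286 is the smallest that 70 assignments of 8 libraries allow. Of the 4 Het DMSO libraries 409, 411 and 420 lay above all Het Hit 2 libraries and 429 lay within their range. Without libraries 409 and 411 the value was -0.17 (edgeR adjusted p 0.983 to 0.990 for all 6 genes in that fit), and the Het Hit 2 mean was 0.892 times that of libraries 420 and 429.

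Gcnt1 was nominally higher with Hit 2, at a log2 fold change of 0.44 (SE 0.25, 95% interval -0.11 to 0.995, adjusted p by edgeR 0.898, exact permutation p 0.0571). Libraries 410, 421 and 430 lay above all Het DMSO libraries and 422 did not. Fam163b gave 0.31 (SE 0.23, interval -0.18 to 0.81, edgeR adjusted p 0.898, exact permutation p 0.371), which became 0.58 without 409 and 411, 0.16 without 429 and 0.13 without 430. Slc44a5 gave -0.01 (SE 0.16, interval -0.37 to 0.35, edgeR adjusted p 0.990, exact permutation p 0.971), the narrowest distance between the Het groups of the 6. The intervals of Gcnt1 and Fam163b include 0 and also differences of up to 1.99-fold and 1.75-fold, so they do not show that the groups were alike.

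For the 2 noncoding RNAs the intervals were wider. Gm15083 had a log2 fold change of 0.64 (SE 0.60, interval -0.66 to 1.94, edgeR adjusted p 0.898, exact permutation p 0.257), and 0.26 without 409 and 411, with a range of 0.24 to 0.83 when 1 library was left out. Gm39465 had 0.44 (SE 0.69, interval -1.06 to 1.95, edgeR adjusted p 0.898, exact permutation p 0.571), and -0.28 without 409 and 411, a turn in direction. With 1 library left out it ran from 0.047 (without 411) to 0.83 (without 420). Neither RNA came near its WT level in any treated library. The highest Het Hit 2 values were 0.328 CPM for Gm15083 and 2.97 CPM for Gm39465, against lowest WT values of 1.27 and 21.9 CPM. When changes were simulated in this comparison over 19378 genes, the fit recovered 22% of those of 2-fold and 70.4% of those of 4-fold. The changed genes were drawn from tested genes of all levels, with the same spread for a gene in every library. These rates are therefore not those of the 2 noncoding RNAs.

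**Figure D2:**
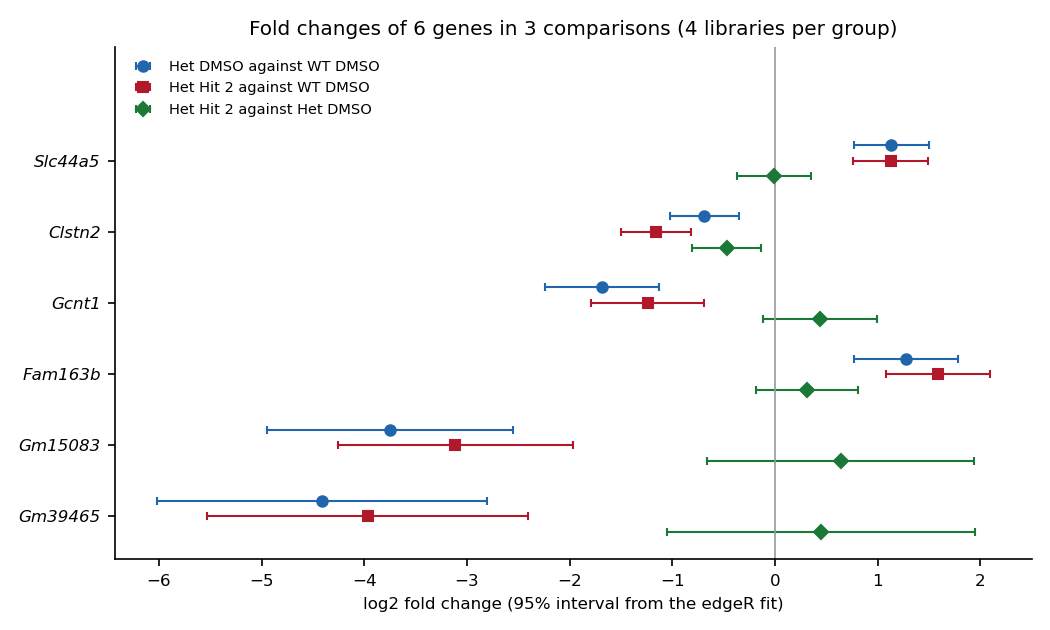
Log2 fold change (horizontal axis) of the 6 genes in 3 comparisons, with 95% intervals from the edgeR fit of 12 libraries as bars. Values against WT run from -4.41 for Gm39465 to 1.59 for Fam163b and were used to pick the genes, while those of Het Hit 2 against Het DMSO run from -0.47 for Clstn2 to 0.64 for Gm15083.

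Summed levels of cell type markers were also compared between the groups. Of 13 lists of cell type markers, the summed level of 2 lay apart between WT and Het libraries, and both were lower in Het mice. The 16 Purkinje cell markers, such as Pcp2, Calb1 and Itpr1, summed to between 9779 and 10260 CPM in WT, 1517 and 8787 CPM in Het DMSO, and 4595 and 8522 CPM in Het Hit 2. All 16 had a log2 fold change below 0 in both Het groups against WT (median -0.71 in Het DMSO and -0.50 in Het Hit 2, against 0.05 and 0.02 over all tested genes), 9 separated WT from Het without overlap, and 0 passed the threshold by edgeR. At an unadjusted p under 0.05 there were 5 of 16 in Het DMSO and 3 of 16 in Het Hit 2, against 7.11% and 1.71% of all tested genes. Both ends of the Het DMSO range came from libraries 411 and 409, and the other 2 libraries had 6339 and 7493 CPM. Without 409 and 411 all 16 were again below 0 in both groups, with medians of -0.57 and -0.51. In that fit 0 and 1 (Fam107b) passed the threshold by edgeR, as did 0.0895% and 0.448% of all tested genes. In the same fit 12 and 14 had an unadjusted p under 0.05, against 5.83% and 9.5% of all tested genes. The marker values without these libraries were added after the data were seen, as were those per kilobase. The 12 markers of Bergmann glia and astrocytes summed to 3622 to 4088 CPM in WT, 2653 to 3123 CPM in Het DMSO and 2809 to 3041 CPM in Het Hit 2, and 3 of the 12 did not overlap (Gdf10, Slc1a3 and Aldoc). Of the sum, Aldoc alone accounted for 1085 CPM in WT DMSO and 617 and 614 CPM in the Het groups, while markers such as Slc1a2, Gfap, Aldh1l1 and Fabp7 overlapped. The median log2 fold change of the 12 from WT was -0.19 in Het DMSO and -0.21 in Het Hit 2. Without 409 and 411 it was -0.19 and -0.23, and there Aldoc passed the threshold in Het Hit 2, as did 0.448% of all tested genes. Among all tested genes 1.8% did not overlap. No marker of these 2 lists was at 0 in any library. Fewer cells of a type and less RNA per cell cannot be told apart in whole tissue.

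The other 11 lists overlapped between WT and Het libraries. Granule cell markers ran from 7034 to 8003 CPM in WT, from 273.5 (411) to 9696 CPM (409) in Het DMSO and from 4500 (410) to 7546 CPM in Het Hit 2. Oligodendrocyte markers ran from 1882 to 3554 CPM in WT, from 1353 (420) to 6912 CPM (411) in Het DMSO and from 1364 (422) to 5762 CPM (410) in Het Hit 2. Microglial markers ran from 83.1 to 119 CPM in WT, from 96.0 to 227 CPM in Het DMSO and from 85.3 to 166 CPM in Het Hit 2. Molecular layer interneurons, unipolar brush cells, oligodendrocyte precursors, endothelium and pericytes, choroid plexus, red blood cells, midbrain and thalamus, and forebrain make up the remaining lists. Defining markers were at 0 in at least 1 library for choroid plexus (3 of 12), midbrain and thalamus (4 of 10) and forebrain (5 of 10).

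Set against the markers, the 6 genes did not all follow the Purkinje sum. Slc44a5 and Fam163b were higher in Het libraries while that sum was lower. Within the Het libraries Clstn2 was high in library 411, which had the lowest Purkinje sum, and in library 409, which had the highest. Itpr1 alone made up 4659 CPM of the sum in library 409, and 4405 to 4727 CPM in WT libraries. Of the other markers in library 409 some, such as Rgs8 (963 CPM), lay within the WT range. Others, such as Calb1 (139 CPM against at least 373 CPM in WT), lay below it. Gm39465 was lowest in libraries 411 and 410, the 2 with the lowest Purkinje sums. Library 409 had 0.985 CPM of it, with a Purkinje sum of 8787 CPM. Gcnt1 stayed between 1.25 and 2.22 CPM over Purkinje sums from 1517 to 8787 CPM. When each level was divided by the Purkinje sum, WT and Het libraries overlapped for Clstn2 and Gcnt1, with or without 409 and 411. They did not for Gm15083 and Gm39465, whose lowest WT values were already 3.87 and 7.39 times their highest Het values. Outside library 411, where these RNAs had 0 and 1 reads, the Purkinje sums differ by less than that. The outcome for these RNAs was thus set beforehand, and nothing is read from it. For Slc44a5 and Fam163b division by the Purkinje or the Bergmann and astrocyte sum can only widen the gap, since both sums were lower in every Het library, so nothing is read from their lack of overlap. Of the 4 genes that were lower in Het mice, Clstn2 also overlapped after division by the Bergmann and astrocyte sum, and Clstn2 and Gcnt1 after division by the granule sum, though not without 409 and 411. This division was added after the data were seen, and the part of cell composition in the differences was not tested.

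**Figure D3:**
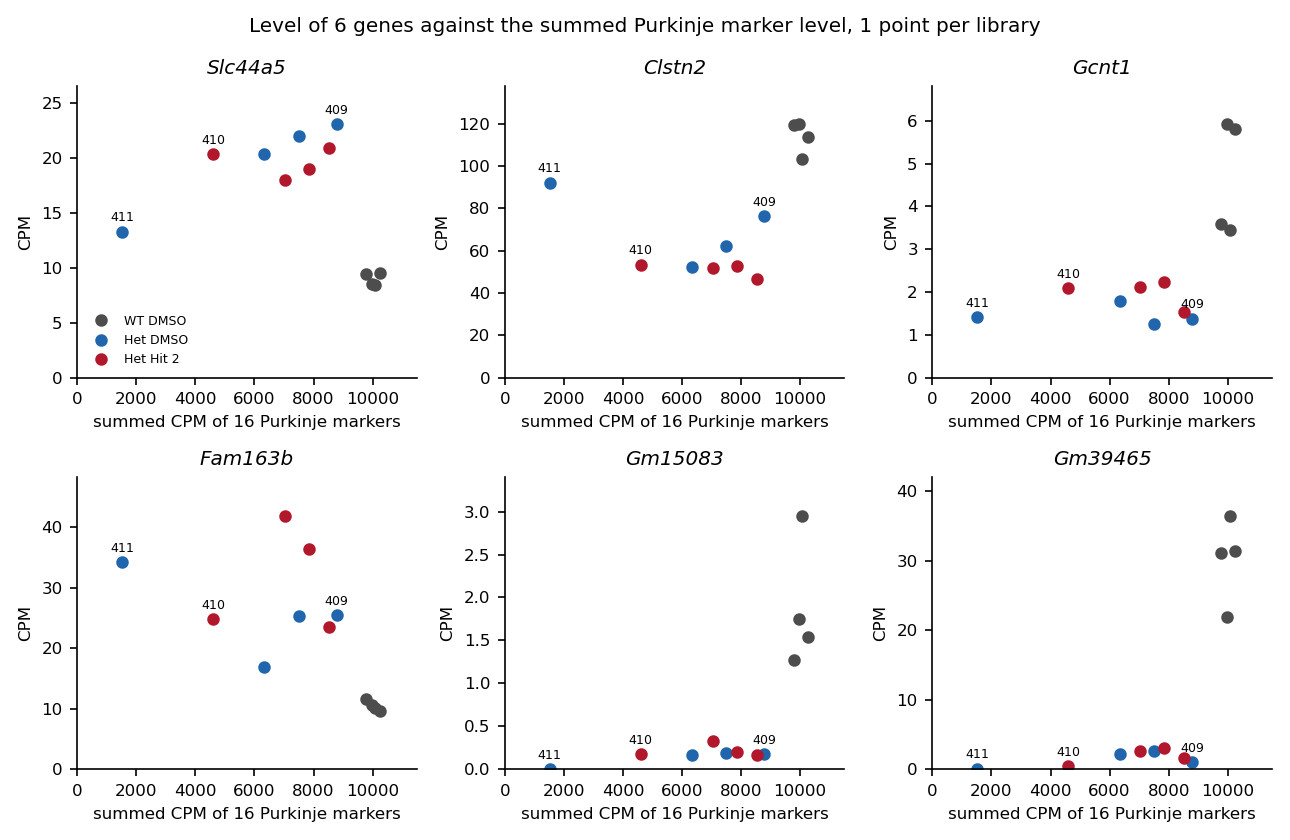
Level of each of the 6 genes in CPM (vertical axis) against the summed CPM of 16 Purkinje cell markers (horizontal axis), 1 point per library, coloured by group. The WT points sit together at 9779 to 10260 CPM on the horizontal axis, and over the Het points, which run from 1517 to 8787 CPM, Slc44a5 and Fam163b stay above their WT points and the other 4 genes below theirs.

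Gm15083 partly overlaps Atp2b2 on the opposite strand and runs past its annotated start (chromosome 6, 113743831 to 114042613, minus strand), so its counts depend on the strand being read correctly. The libraries were made with a directional kit, and the counts of the strand that holds most gene reads were used. Over the exons of Gm15083, the strand of Atp2b2 carried 239 reads in WT DMSO, 107 in Het DMSO and 145 in Het Hit 2, which is 51.2%, 88.4% and 87.4% of the reads there. Opposite-strand levels were 1.50 to 2.17 CPM in WT libraries and 0.876 to 1.68 CPM in Het libraries, so these ranges overlapped while those on the Gm15083 strand did not. Atp2b2 itself stood at 1479, 1192 and 1169 CPM in WT DMSO, Het DMSO and Het Hit 2, with log2 fold changes from WT of -0.31 and -0.34 (edgeR adjusted p 0.619 and 1.000). When reads of both strands were counted, the log2 fold change of Gm15083 from WT shrank to -1.58 in Het DMSO and -1.22 in Het Hit 2. Summed over each group, at most 6.29% of the reads over the exons of the other 5 genes lay on the opposite strand. Single libraries were higher only for Gm39465, where 1 of 2 reads in library 411, 13.0% in 409, 12.5% in 410 and 6.49% in 422 lay there.

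**Figure D4:**
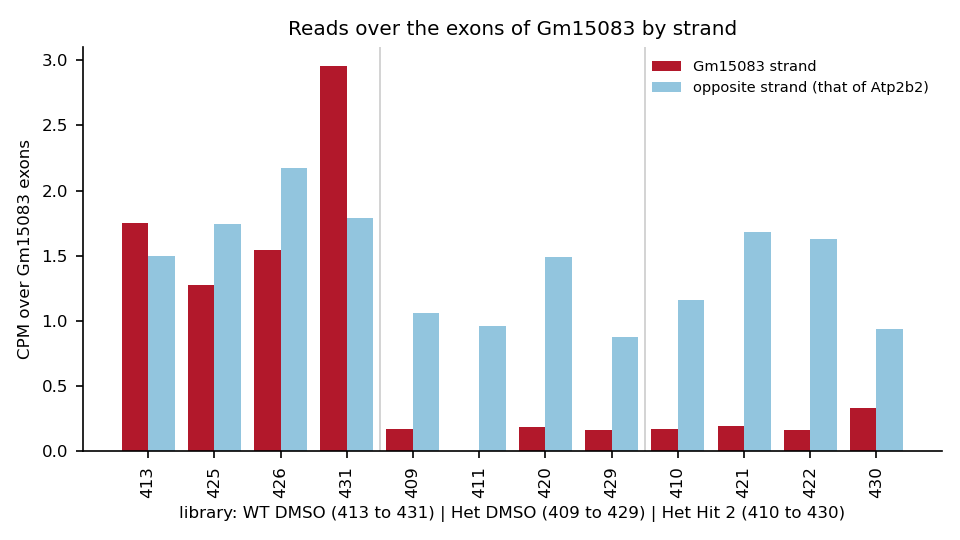
CPM over the exons of Gm15083 (vertical axis, from 0) on its own strand and on the opposite strand, that of Atp2b2, in each library. On its own strand the Het libraries hold at most 0.328 CPM and the WT libraries at least 1.27 CPM, while the opposite strand holds 0.876 to 2.17 CPM in all libraries.

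The tested neighbours of the 6 genes on the chromosome were searched for others whose WT libraries lay apart from all Het libraries, as 1.8% of all tested genes did. Within 1 Mb on either side of Slc44a5, 0 of 19 tested genes did, and for Gcnt1 it was 0 of 6. For Clstn2 it was 2 of 19 or 10.5% (Rasa2 and Gm37661) and for Fam163b 1 of 42 or 2.38% (Col5a1). For Gm15083 it was 3 of 43 or 6.98% (Ttll3, Gm44280 and Gm44167) and for Gm39465 2 of 45 or 4.44% (Pomgnt2 and 4632418H02Rik), shares above that of all genes but from 1 to 3 genes each, with names that were chosen after their values were seen. By edgeR 0 genes in these windows passed the threshold in any of the 3 comparisons. The nearest tested genes that did not overlap were Acadm and Tyw3 for Slc44a5, Slc25a36 and Nmnat3 for Clstn2, and Prune2 and Rfk for Gcnt1. They were Adamtsl2 and Dbh for Fam163b, Gm44167 and Slc6a11 for Gm15083, and Pomgnt2 and Snrk for Gm39465. Tested genes that overlapped were Gm3076 and Gm42541 inside Slc44a5 on its strand, Gm37661 inside Clstn2, and Atp2b2 at Gm15083. Gm37661, a short transcript model inside Clstn2 on the same strand, stood at 4.24 ± 1.58 CPM in WT DMSO and at 1.37 ± 0.937 and 1.50 ± 0.162 CPM (SD, n = 4 each) in Het DMSO and Het Hit 2. It shares its strand with Clstn2 introns, so reads of the 2 cannot be told apart. The same limit holds for Gm44167, which is annotated within an intron of Atp2b2 on the strand of that gene. Pomgnt2, the left neighbour of Gm39465 on the same strand, went the other way, at 27.8 ± 1.26 CPM in WT DMSO, 43.4 ± 15.2 in Het DMSO and 33.5 ± 1.65 in Het Hit 2 (SD, n = 4 each).

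Other genes of the same families and pathways were examined in 7 lists with 71 tested genes. By edgeR 0 of the 71 passed the threshold in any of the 3 comparisons. At an unadjusted p under 0.05 there were 4 between Het DMSO and WT, 1 between Het Hit 2 and WT and 0 between the Het groups, or 5.63%, 1.41% and 0% of the 71, against 7.11%, 1.71% and 1.55% of all tested genes. DESeq2 also called 0 in each, and limma with library weights called 0, 1 and 0.

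The tested relatives of Slc44a5 were Slc44a1 and Slc44a2, which encode choline transporter-like proteins found in many tissues. Slc44a1 stood at 96.0 ± 7.16, 106 ± 16.5 and 92.8 ± 13.5 CPM and Slc44a2 at 61.2 ± 4.03, 71.1 ± 19.9 and 64.4 ± 3.32 CPM (SD, n = 4 each) in WT DMSO, Het DMSO and Het Hit 2. Of 16 tested genes of choline uptake and phosphatidylcholine synthesis, 10 had fold changes from WT above 0 and 6 below 0 in Het DMSO, where their median (log2) was 0.03 and that of all tested genes 0.05. The same median was 0.02 for the Het Hit 2 group, and between the 2 Het groups it was -0.06.

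The other calsyntenins were not lower in the Het DMSO group than in WT. Clstn1 was at 730 ± 36.7 CPM in WT DMSO, 947 ± 307 in Het DMSO and 773 ± 15.9 in Het Hit 2, and Clstn3 at 610 ± 35.8, 679.8 ± 227 and 579 ± 31.8 CPM (SD, n = 4 each). In Het DMSO their fold changes from WT were 0.38 and 0.16 on the log2 scale (edgeR adjusted p 0.616 and 0.745). Among 21 genes of synaptic adhesion and of kinesin-1, the motor that carries calsyntenins, 15 were above 0 and 6 below in Het DMSO (median 0.21 against 0.05 over all tested genes) and 13 and 8 in Het Hit 2 (median 0.08 against 0.02), each relative to WT. Between the Het groups 6 were higher with Hit 2 and 15 lower (median -0.15 against -0.04), none past the threshold. Nlgn1, which encodes the adhesion protein neuroligin-1, stood at 60.8 ± 9.13 CPM in WT DMSO and 95.5 ± 4.69 CPM in Het Hit 2 (SD, n = 4 each). This difference of 0.65 (log2, SE 0.21) did not pass here, at an edgeR adjusted p of 1.000, and passed in 3 of the alternative fits.

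Around Gcnt1, the 4 tested relatives that transfer sugars in like reactions, Gcnt2, Gcnt4, Xylt1 and Xylt2, had fold changes of 0.21, 0.88, 0.30 and 0.31 (log2) between Het DMSO and WT (edgeR adjusted p 0.617 to 0.805). In Het Hit 2 the values were 0.19, 0.40, -0.06 and 0.15, and between the Het groups all 4 were lower with Hit 2 (median -0.26), none past the threshold. For each of the 4 the Het DMSO and Het Hit 2 ranges overlapped. The Het DMSO libraries spread widely, from 0.714 to 4.44 CPM in Gcnt4 and from 40.4 to 78.3 CPM in Xylt2. Of 25 tested genes of mucin-type O-glycan synthesis, 17 were above 0 and 8 below in Het DMSO (median 0.12) and 12 and 13 in Het Hit 2 (median -0.01), each against WT. Between the Het groups 10 were higher with Hit 2 and 15 lower (median -0.10). Fam163a, the other member of the FAM163 family, had 1.24 ± 1.21, 2.93 ± 3.23 and 2.01 ± 2.42 CPM (SD, n = 4 each) in WT DMSO, Het DMSO and Het Hit 2, with a spread as large as its means.

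The profiles of the 6 genes over the 12 libraries were compared by the mean absolute difference of log2 CPM, each gene centred on its own mean, where a smaller value is a closer likeness. Slc44a5 and Fam163b differed by 0.379, Clstn2 and Gcnt1 by 0.426, and Gm15083 and Gm39465 by 0.887, against 0.99 to 2.66 for 11 of the other pairs. Gm15083 was closer to Gcnt1, at 0.746, than to Gm39465. Genes chosen for the same direction against WT are bound to be alike in part, so these values describe and do not test.

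Over all tested genes with a symbol, the closest to Slc44a5 were Marcks (0.198), Hrk (0.236) and Kcnb2 (0.245), against a median of 0.581 over all genes. For Fam163b they were Kcnk2 (0.306), Kcnb2 (0.314) and Ebf4 (0.341). Kcnk2 and Kcnb2 encode potassium channels, and Kcnb2 is near both genes, at 20.95 CPM in WT DMSO, 41.1 CPM in Het DMSO and 38.2 CPM in Het Hit 2. For Clstn2 the closest were Nxph3 (0.229), Lmcd1 (0.241) and Aldoc (0.242), and for Gcnt1 4932435O22Rik (0.243), Igfbp5 (0.263) and Dap (0.298). Aldoc encodes a glycolytic enzyme that marks both astrocytes and a subset of Purkinje cells, and its levels are given above among the markers. Gm15083 was closest to Myo15 (0.346), Ccdc63 (0.534) and Car9 (0.573), and Gm39465 to 4930447F24Rik (0.743), Car9 (0.794) and Gm15083 (0.887). Myo15, an unconventional myosin, is the gene that passed the threshold against WT in both Het groups, from 16.7 CPM in WT DMSO to 2.27 and 2.96 CPM.

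**Figure D5:**
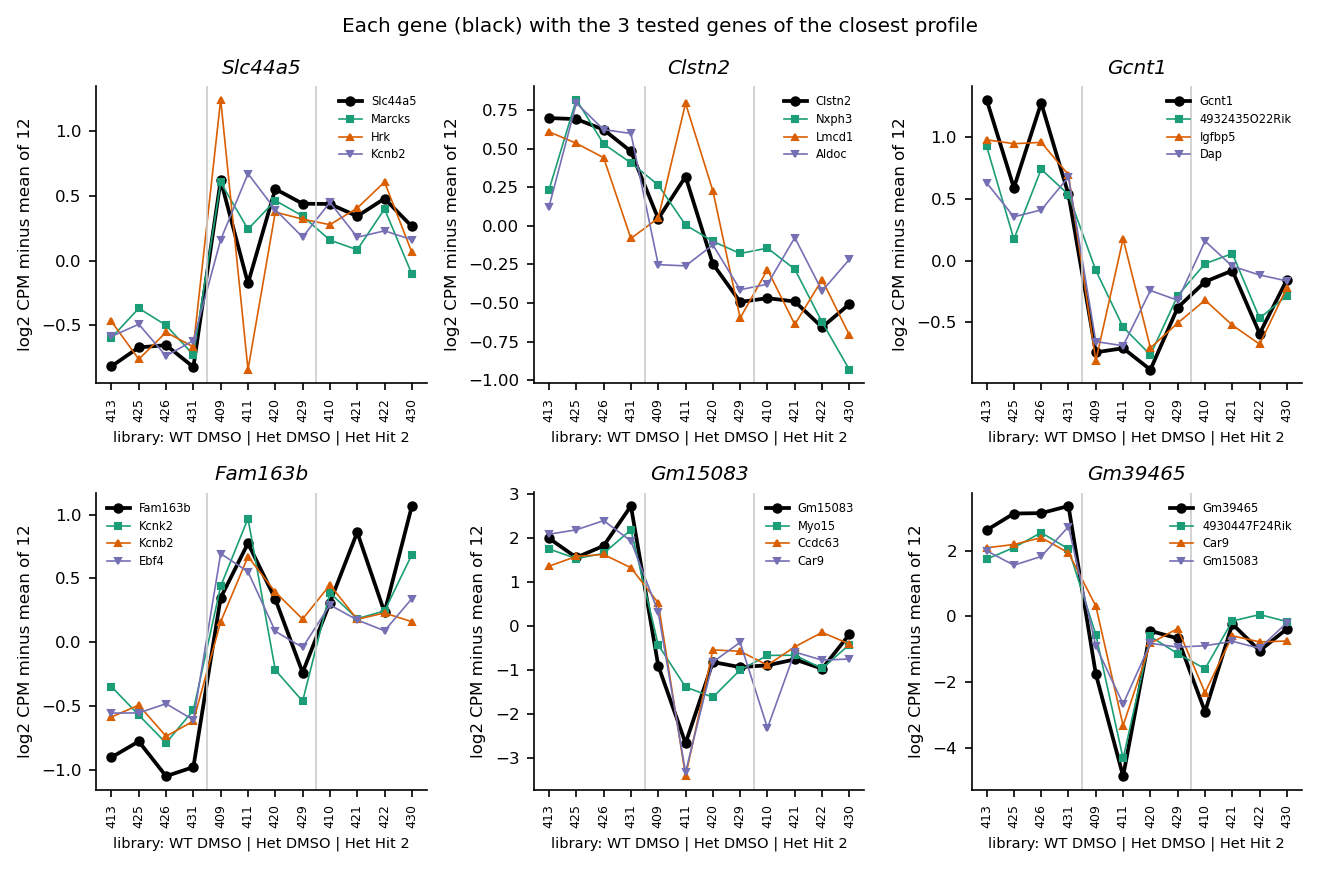
Log2 CPM minus the mean of 12 libraries (vertical axis) for each of the 6 genes (black) and the 3 tested genes with the closest profile (coloured), by library, with lines only to guide the eye. The WT libraries on the left lie above 0 for Clstn2, Gcnt1, Gm15083 and Gm39465 and below 0 for Slc44a5 and Fam163b, and library 411 sits lowest for Gm15083 and Gm39465.

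Likeness depended on libraries 409 and 411 for some of the genes. When they were left out, 3 of the 3 closest genes were the same for Gm39465, 2 for Slc44a5, Gcnt1 and Gm15083, 1 for Clstn2 and 0 for Fam163b.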

How the data were processed

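RNA of 12 cerebella was read as pairs of 100 bases after ribosomal depletion and directional library preparation, per the labels' protocols. The deposited tables hold raw read counts for each gene in STAR's layout, without normalization by the authors. The submitters' processing notes name FastQC 0.11.9, STAR 2.7.10a and the builds GRCm39 and mm39, and the annotation release is not given in the sources used here. Symbols and coordinates come from GENCODE M21 (GRCm38), which matched 55141 of 55401 identifiers, and promoter windows from RefSeq (GRCm38.p6), which matched all 6 genes. Library sizes leave out reads in no annotated gene (44.7% to 54.6%), unmapped reads (3.70% to 6.53%), multimapping reads (4.08% to 7.01%) and ambiguous reads (0.761% to 1.33%).

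The 6 genes and all lists were chosen with earlier results of these data known. The strand with most gene reads was used. In edgeR 4.0.16 (R 4.3.3), genes were kept by filterByExpr, scaled with TMM factors and fitted with the quasi-likelihood test on all 12 libraries, 1 coefficient per group, two-sided, with Benjamini-Hochberg adjustment over 19378 genes. Centred profiles and the exact permutation tests of single genes used log2 CPM (prior count 2). The pipeline was tested on simulated data. Alternatives were DESeq2 1.42.0, limma 3.58.1 with library weights, other scaling, filters, strand and thresholds, and leaving out libraries. Besides the 6 genes, named genes are family members of at least 1 CPM in the median library, the 3 closest profiles and markers. The nearest tested neighbours and the tested genes that overlap 1 of the 6 are named too. Other neighbours in the text were picked by their values. Labels name 1 animal per library, so p-values measure the spread between mice.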

Additional observations from a re-analysis of the deposited data

Results flagged for a closer look

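Gm15083 was at 0.0 CPM in library 411 of the Het DMSO group, while the other 3 libraries of that group lay between 0.167 and 0.187 CPM, a gap that is large for 4 values. The others had 3 to 7 reads each, and 0 reads in library 411 allow up to 0.151 CPM at a floor of 3 reads. Of 18 groups of 4 checked (6 genes in 3 groups) this was the 1 found, where chance gives about 0.9.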

How the results depend on the processing

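No paired analysis was possible because animal numbers do not recur between groups. Called members in Het Hit 2 against Het DMSO were 0 in all 23 alternatives. The Slc44a5 log2 fold change in that comparison changed sign to 0.0161 with a mean of at least 50 reads, 0.0640 with unstranded counts and 0.0121 with only the 2 groups compared, and ran from -0.188 to 0.0763 when 1 library was left out. That of Gm39465 became -0.28 without 409 and 411. Counts of calls against WT rest on the contrast that chose the genes and support nothing. There 0 of the 6 were called in the fit used; each share after a count below is that of all tested genes called. In Het DMSO against WT DMSO the number was 6 with DESeq2 (0.222%), 4 with limma and library weights (0.506%), 4 without 409 and 411 (0.0895%), 3 at an adjusted p under 0.1 (0.0413%), and 0 to 3 when 1 library was left out (3 without 411, 0.0456%). In Het Hit 2 against WT DMSO it was 6 with DESeq2 (0.124%), 2 with no filter (0.0111%), 5 with only the 2 groups compared (0.283%), 6 with limma (1.14%), 5 without 409 and 411 (0.448%), 1 at an adjusted p under 0.1 (0.0103%), and 0 to 5 when 1 library was left out (5 without 411, 0.0709%; 1 without 409, 0.0253%; 1 without 429, 0.0102%). Related genes called there were 1 (Nlgn1) with only the 2 groups compared, with limma and without 409 and 411. Of the 3 closest genes, 1 remained for Clstn2 and 0 for Fam163b without 409 and 411. The cause of these changes was not tested. WT and Het libraries did not overlap for all 6 genes in each of the 16 alternatives of scaling, strand and libraries, and for 4 to 6 after division by marker sums. The genes were chosen for this separation, and leaving out libraries can hardly create an overlap, so these numbers support nothing. Gm15083 was not tested at a mean of 50 reads, nor between the Het groups with only those 2 groups compared. The counts of called genes in those fits cover 5 genes. Depth limits Gm15083 most, at 0 to 7 reads per Het library.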
